A study of Mus musculus with 48 samples.

Results

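The comparison described here is that of vertical sleeve gastrectomy (VSG) with sham surgery in the enteroendocrine cells of the mouse duodenum. Its members were chosen by the tissue and condition labels: 6 duodenum libraries from VSG mice and 5 from sham ad libitum mice, 11 of the 48 libraries of the series. All mice were lean males of the Neurod1-cre-eYFP strain on a C57BL6 background, aged about 20 weeks at surgery, in which a Cre driven by Neurod1 makes enteroendocrine cells fluoresce. VSG mice had 70% or more of the stomach volume removed and received vitamin B12 weekly. Sham ad libitum mice had a suture along the same line with no pressure on the stomach and ate freely. Another group, sham weight-matched, was fed to match the weight of VSG mice and enters below only where it is named. All groups received antibiotics, an analgesic and liquid diet around surgery and standard chow otherwise. At 6 weeks after surgery each mouse was fasted overnight, gavaged with 3 g/kg glucose and killed about 15 min later, so the profiles are those of glucose-stimulated cells. The epithelium of the top 5 cm of the small intestine was dispersed and sorted for EYFP-positive, CD45-negative, live cells, and every library comes from 1 mouse. Since the sorted cells were profiled in bulk, fewer cells of a type and less RNA per cell cannot be told apart.

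Enteroendocrine cells are scattered hormone-secreting cells of the gut epithelium that sense luminal nutrients and release peptides or serotonin from granules. In the duodenum they are known for GIP, the incretin of K cells, for cholecystokinin and secretin, which drive bile and pancreatic secretion, and for ghrelin, somatostatin and serotonin, while proglucagon-derived peptides, PYY and neurotensin come mostly from more distal cells. The question put by the design is whether the surgery alters the transcriptome of these cells where food first enters the intestine.

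Total counts were 6200830 to 17182463 per library in sham ad libitum and 6103590 to 9827804 in VSG mice, with 18935 to 21052 and 18943 to 20774 genes detected. Levels are given as CPM, the counts of a gene scaled to a common library size with edgeR's TMM method. The labelled cell type was borne out in all 11 libraries: the 8 enteroendocrine markers (Neurod1, Chga, Chgb, Scg2, Pax6, Rfx6, Isl1 and Insm1) summed to 40579 to 68389 CPM in sham ad libitum and 40215 to 72127 CPM in VSG mice. The defining markers of immune cells summed to at most 20.6 CPM and those of stromal and muscle cells to at most 23.4 CPM. Enterocyte transcripts were present in all libraries, and the 12 enterocyte markers summed to 6956 to 9980 CPM in VSG and 6869 to 18260 CPM in sham ad libitum mice, the highest being sham ad libitum mouse 32. The library labels also give the i5 sequencing index, which partly follows the groups: all 6 VSG libraries carry index D502, whereas sham ad libitum mice 12, 32 and 13 carry D501 and mice 19 and 17 carry D502. Values within index D502 (6 against 2 libraries) and from a fit of all 48 libraries with the index as a covariate are therefore given beside the gene groups. Over all genes 1.91% were higher and 1.82% lower at an unadjusted p under 0.05 within index D502, 5.93% and 2.55% with the covariate, and 2.28% and 2.76% with edgeR on the 11 compared libraries alone. The part of the index in each result was not tested further. One duodenum library of another group stood apart. Sham weight-matched mouse 27 had 56565 CPM of enterocyte markers and 11393 CPM of enteroendocrine markers. In the fit of 48 libraries without the covariate, it enters the comparison through the estimate of the spread. With the covariate it also enters the index term, as the 1 sham weight-matched duodenum library with D501, against 4 with D502. Only the 2 sham groups of the duodenum hold both D501 and D502. Every value given with the covariate therefore rests partly on mouse 27.

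No gene passed an adjusted p of 0.05. In edgeR's quasi-likelihood test, fitted to all 48 libraries with 1 mean for each of 9 groups of surgery and region, 0 of 15126 genes (0.0%) were called, the lowest Benjamini-Hochberg adjusted p was 0.424, and 370 genes had an unadjusted p under 0.05. Of these 202 were higher after VSG (1.34% of the genes tested) and 168 were lower (1.11%). These shares are the background for the counts of gene groups below, where "at p under 0.05" means unadjusted, and in this fit where no other is named. The CPM of the groups did not overlap for 38 genes that were higher after VSG (0.251%) and 44 that were lower (0.291%). DESeq2 on the same 48 libraries also called 0 genes, with 434 at an unadjusted p under 0.05, and limma voom, with the mouse entered as a random block, called 0, with 477.

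The precision set by the replicates was good for the genes in this tissue's middle and upper range. The 95% interval of the fold change lay within a 2-fold change in either direction for 10142 genes, 67.1% of those tested, and for 94.6% of the 7215 genes at 10 to 100 CPM, but for 39.3% of those at 1 to 10 CPM. Over the 100 most variable genes, the split into VSG and sham ad libitum took 17.1% of the summed squares between the 11 libraries (exact permutation test, one-sided, p = 0.0476). With 1 library left out it was below 0.05 only without sham ad libitum mouse 13 or VSG mice 28 or 30 (exact permutation p from 0.0159 to 0.0238), and the highest exact permutation p was 0.219, without sham ad libitum mouse 12. This share also missed the threshold with 50 genes (16.9%, exact permutation p = 0.0693) and with 500 genes (16.4%, exact permutation p = 0.0519). Within index D502 it was 14.8% (exact permutation p = 0.429, with 0.0357 the smallest possible). A random split of the libraries also takes a share, and a larger one when fewer libraries are split. Shares from different numbers of libraries are therefore not on the same scale.

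**Figure D1:**
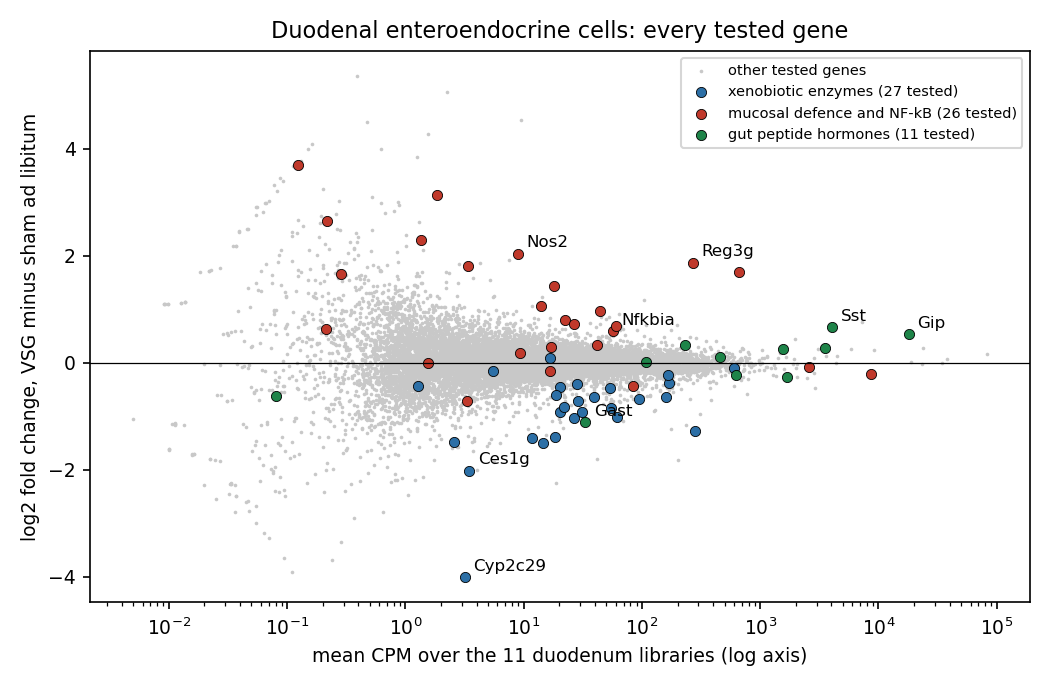
Log2 fold change between VSG and sham ad libitum duodenum libraries (vertical axis) against the mean CPM of the 11 libraries (horizontal log axis) for 15103 tested genes, 23 others having no count in these libraries; 3 gene lists are coloured. Gut peptide genes (green) lie on both sides of 0 at high CPM, while most mucosal defence genes (red) lie above 0 and all but 1 of the xenobiotic enzymes (blue) below it.

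Gut hormone genes were not called, in either direction. All 11 gut peptide genes on the list were tested, none was at p under 0.05, 7 had a positive and 4 a negative log2 fold change, and the median was 0.11 against 0.01 over all genes tested. Per kilobase of exon, Gip was the most abundant in sham ad libitum mice (20961 CPM per kb), followed by Sst (4295), Cck (2421), Sct (2211) and Ghrl (1709), with Gcg at 458, Nts at 352 and Pyy at 170.0. The first 5 also led after VSG, in the same order. Summed over the 11 genes, hormone transcripts took 2.00% to 2.91% of the scaled counts in sham ad libitum libraries and 2.44% to 4.37% after VSG, and the groups overlapped. With edgeR on the 11 libraries alone, Gip and Sst, 2 of 10 genes tested, were higher at an unadjusted p under 0.05, and 0 were called. The median of the list was 0.24 within index D502 and -0.19 with the index as a covariate.

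Gip (ENSMUSG00000014351, GRCm38 chromosome 11 from 96024545 to 96030831), which encodes the incretin GIP, accounted for most of those counts. In sham ad libitum mice 12, 32, 13, 19 and 17 it was at 12021, 18373, 11555, 15142 and 14909 CPM, and after VSG it ranged from 13535 to 26187 with a median of 21485. Only VSG mice 11 and 18 lay below the highest sham library. The log2 fold change was 0.54 (standard error 0.582, 95% interval -0.64 to 1.71), so that neither an unchanged level nor a 2-fold higher one lies outside the interval. Within index D502 the log2 fold change was 0.47, and with the index as a covariate it was 0.18.

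Sst, which encodes the paracrine inhibitor somatostatin, was at 2410, 3275, 1468, 3901 and 4432 CPM in sham ad libitum mice and at 2844 to 7559 CPM after VSG (median 4732). Its log2 fold change was 0.66 (standard error 0.513), the largest of the 11 genes in the positive direction. Cck, which encodes cholecystokinin, had 0.27 (standard error 0.354) and Sct, which encodes secretin, 0.25 (standard error 0.309). Ghrl, the ghrelin gene, had -0.27 (standard error 0.433).

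Gcg, the proglucagon gene from which GLP-1 is made, was at 701.3, 514, 536, 1013 and 654 CPM in sham ad libitum mice and at 231 to 1317 CPM after VSG (median 498). Its log2 fold change was -0.22 (standard error 0.444, 95% interval -1.12 to 0.67), and VSG mouse 30 alone lay above all sham libraries. Pyy (0.01, standard error 0.403) and Nts (0.11, standard error 0.357) were close to 0, although each changed sign when 1 library or another was left out. Gast, which encodes gastrin, a hormone of the antrum that lies upstream of the sampled segment, was uneven in both groups: 2 of the 5 sham libraries (mice 13 and 17, at 108 and 123 CPM) and 2 of the 6 VSG libraries (mice 28 and 18, at 27.9 and 99.3 CPM) carried nearly all of it, and the other 7 had at most 3.87 CPM. For Tac1, the substance P gene, the log2 difference was 0.33 (standard error 0.354). Insl5, a colonic hormone, had at most 0.370 CPM in any of the 11 libraries.

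**Figure D2:**
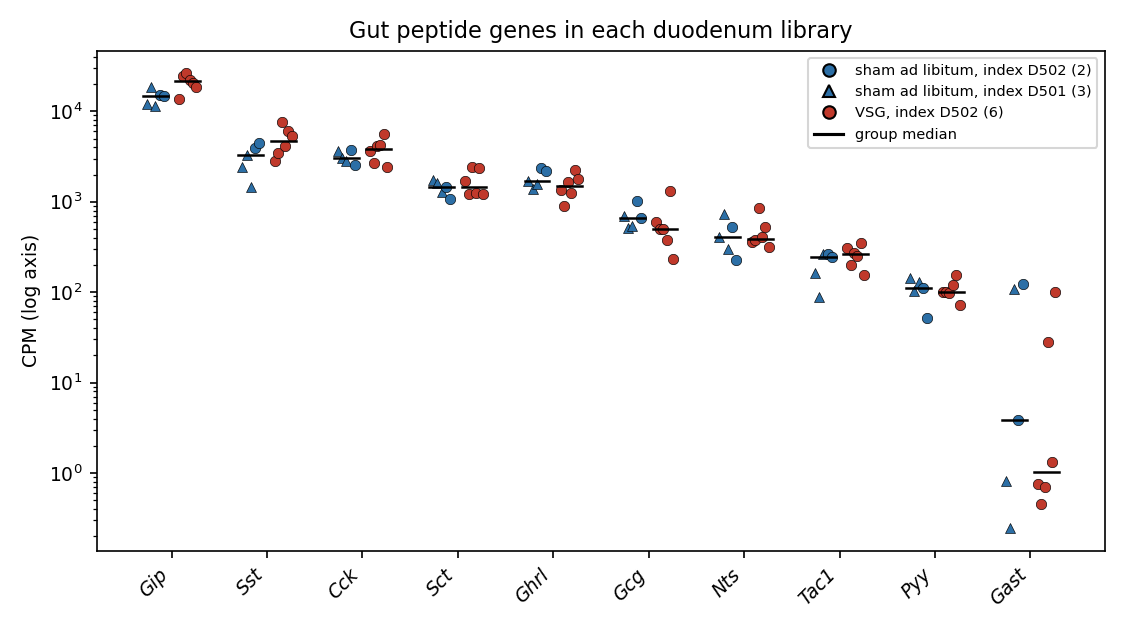
CPM (log axis) of 10 gut peptide genes in each duodenum library, blue for sham ad libitum and red for VSG, with triangles for index D501, circles for D502 and a bar at each group median. Gip, from 11555 to 26187 CPM, overlaps between the groups like every other gene shown, and Gast splits both groups into libraries at 27.9 CPM or more and libraries at 3.87 CPM or less.

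The machinery that makes, packs and releases these peptides had no call either, and more of its intervals lay within 2-fold than for the peptide genes. Of 13 granins and prohormone processing genes, none was at p under 0.05, the median log2 fold change was 0.08, and all 13 intervals lay within 2-fold. Chga and Chgb, the main granule proteins, had 0.01 (standard error 0.275) and -0.01 (standard error 0.308), and Cpe, a carboxypeptidase that trims prohormones, had 0.30 (standard error 0.227). Of 30 transcription factors of the lineage none was at p under 0.05 (median 0.07), with 26 intervals within 2-fold. Neurod1, which drives the reporter, had 0.05 (standard error 0.245). Within index D502 the medians were -0.0047 for the granins and -0.0052 for the transcription factors. With the index as a covariate, where sham weight-matched mouse 27 enters the index term, they were -0.43 and -0.30. The part of mouse 27 in these values was not tested. With edgeR on the 11 libraries alone 1 of the 13 and 2 of the 30 were higher at p under 0.05.

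Among 33 tested receptors that sense nutrients and hormones, out of 40 listed, 0 were higher and 2 lower at p under 0.05, Gpbar1 (the bile acid receptor TGR5, -2.07, at 0.178 against 0.854 CPM) and Cckar (a cholecystokinin receptor, at 0 in every VSG library and 0.141 CPM on average in sham ad libitum mice). With edgeR on the 11 libraries alone 5 of 29 were higher and 1 lower, and the list's median of 0.11 was 0.16 within index D502 and -0.12 with the covariate. Among 41 tested channel and exocytosis genes 1 was at p under 0.05, Rab27a, a GTPase that docks secretory granules. Rab27a was at 32.8, 31.2, 40.0, 38.4 and 41.4 CPM in sham ad libitum mice and at 42.4 to 60.7 CPM after VSG (median 49.97), and the groups did not overlap (log2 fold change 0.45, 95% interval 0.15 to 0.75). It was 0.32 within index D502 and 0.21 with the covariate, neither at p under 0.05. The list's median of 0.0044 was -0.10 within index D502, with 4 of 39 lower, and -0.49 with the covariate, with 7 of 41 lower, and edgeR on the 11 libraries alone had 3 of 39 higher and 2 lower. Rab27a shares exon sequence with Gm27186 on the same strand, so that its counts are uncertain.

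Of 9 genes of serotonin synthesis and storage, Tph1, the rate-limiting enzyme of enterochromaffin cells, had a mean of 2536 CPM in the 6 VSG libraries (SD 562) and of 2575 CPM in the 5 sham ad libitum libraries (SD 467). Maob, which degrades monoamines, was the 1 gene of this list at p under 0.05, at -0.46 (standard error 0.163), with groups that overlapped. It was -0.17 within index D502 and -0.15 with the covariate, neither at p under 0.05. The list's median of -0.10 was -0.17 and -0.31 in these fits, and edgeR on the 11 libraries alone had 3 of the 9 lower.

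Mucosal defence and NF-kB genes had mostly positive values. NF-kB is a transcription factor held in the cytoplasm by inhibitors of the IkB family and released by microbial and cytokine signals. Its targets include its own inhibitors, which shut the response off, and epithelial antimicrobial genes. Of 29 members 26 were tested, and 15 of these (57.7%, against a background of 1.34%) were higher after VSG at p under 0.05 and 0 were lower, with a median log2 fold change of 0.76. None passed the adjusted threshold, and in none were the groups fully separate. Some of the 15 rested on few counts or on 1 library. Retnlb had at most 6 counts in any of the 11 libraries, and Lrg1 had 12 in VSG mouse 28 and at most 3 elsewhere among them. Ccl20 had 120 counts in VSG mouse 11, with 22 the next highest. Lcn2 had 62 in VSG mouse 28, with 29 the next highest, in sham ad libitum mouse 13. The list holds Reg3b, Tifa and Zc3h12a, which the study singled out across regions on these samples, so that these 3 are not independent of it. The list's median was 0.80 within index D502 and 1.16 with the index as a covariate. The number at p under 0.05 was 6 of 22 tested within index D502, 14 of 26 with the covariate, 8 of 20 with edgeR on the 11 libraries alone, and 11 to 16 with 1 library left out of the fit of 48.

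Genes of the IkB family showed tighter values than the antimicrobial genes described below. Nfkbia (ENSMUSG00000021025, GRCm38 chromosome 12 from 55489410 to 55492647, minus strand), which encodes IkB-alpha, was at 46.7, 37.9, 52.3, 41.98 and 42.9 CPM in sham ad libitum mice and at 44.3 to 89.5 CPM after VSG (median 63.9). Only VSG mice 22 and 18 fell below the highest sham library. The log2 fold change was 0.59 (standard error 0.161, edgeR adjusted p = 1), and it stayed between 0.48 and 0.68 with each library left out in turn. Nfkbiz, which encodes the nuclear IkB family member IkB-zeta, was at 40.6, 23.0, 74.4, 46.7 and 44.2 CPM in sham ad libitum mice and at 58.9 to 85.0 CPM after VSG (median 76.6). Here sham ad libitum mouse 13 lay among the VSG libraries while the other 4 sham libraries lay below all of them (log2 fold change 0.67, standard error 0.229). Tifa, an adaptor of microbial sugar sensing, had 0.95 (standard error 0.307), Zc3h12a, an RNase that limits inflammatory mRNAs, 0.79 (standard error 0.269), and Socs3, an inhibitor of cytokine signalling, 0.73 (standard error 0.327). Tifa overlaps the exons of Gm43654 on the opposite strand, so that its counts are uncertain.

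The promoter of Nfkbia is shown because it is one of the few on the list with a match to the kB motif, which NF-kB binds. The motif was taken as GGGA, any base, TT, any base and CC, and searched on both strands of the RefSeq promoters of GRCm38.p6, from 250 bases before to 50 bases after each start. It was present for 372 of 27025 genes (1.38%) and for 4 of the 25 listed members that had a promoter (16%): Nfkbia, Tifa (at another start than the first, after the start site), Cxcl1 and Cxcl2. Cxcl1 and Cxcl2 were too low to be tested. The 250 bases before the start of Nfkbia are chr12:55492648-55492897 on the minus strand, with the match in capitals.
Nfkbia: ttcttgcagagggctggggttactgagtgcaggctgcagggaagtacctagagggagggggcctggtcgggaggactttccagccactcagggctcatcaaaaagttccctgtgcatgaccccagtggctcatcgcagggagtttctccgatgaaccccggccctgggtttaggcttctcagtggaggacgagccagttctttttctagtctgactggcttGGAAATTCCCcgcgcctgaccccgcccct

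The antimicrobial genes had larger and more scattered differences. Reg3g, which encodes a bactericidal lectin, was at 39.5, 31.5, 269, 74.6 and 141 CPM in sham ad libitum mice and at 98.9 to 892 CPM after VSG (median 386), and its log2 fold change was 1.87 (standard error 0.62). Reg3b, its neighbour on chromosome 6, was at 125, 163, 550.5, 171 and 493.2 CPM and at 222 to 1868 CPM (median 989.5), with 1.69 (standard error 0.665). For both, VSG mice 11, 22, 25 and 28 lay above every sham library, while VSG mice 30 and 18 lay within the sham range. The same split held for Nos2, which encodes the inducible nitric oxide synthase (2.04, standard error 0.741). For Duox2, an epithelial oxidase (1.44, standard error 0.673), sham ad libitum mouse 13 lay above all VSG libraries but mouse 28, and the value was 0.50 without VSG mouse 28 and 3.33 without sham ad libitum mouse 13. Nos2 was at 0.0, 0.988, 9.83, 2.08 and 1.82 CPM in sham ad libitum mice and at 1.01 to 29.4 CPM after VSG. Ccl20, Duoxa2, Tnfaip3, Retnlb, Lrg1 and Lcn2 were also higher at p under 0.05. Among the members not at p under 0.05 were Pigr, which carries IgA across the epithelium (-0.08), Reg1 (-0.44) and Reg4 (-0.21). Paneth markers, which belong to a cell type that also makes antimicrobials, summed to 129.8 to 652.6 CPM in sham ad libitum and 150.03 to 408 CPM in VSG mice, and goblet markers to 2831 to 5011 and 2774 to 3950.0 CPM. The 10 immune markers summed to 2.68 to 14.2 and 2.06 to 20.6 CPM. Of these, 5 were tested, with a median log2 fold change of 1.04 and 0 at p under 0.05, and with the index as a covariate the median was 2.71 and 3 were at p under 0.05. The part of these cells in the result was not tested.

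**Figure D3:**
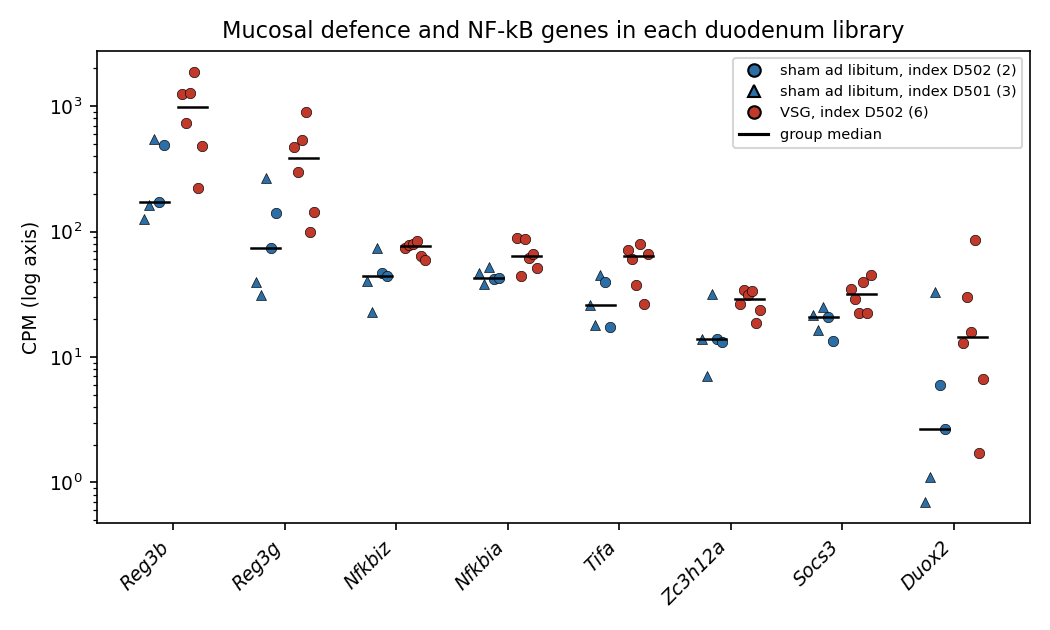
CPM (log axis) of 8 mucosal defence and NF-kB genes in each duodenum library, blue for sham ad libitum and red for VSG, with triangles for index D501, circles for D502 and a bar at each group median. The VSG median is the higher one for each gene, and sham mouse 13 lies among the VSG libraries for Nfkbiz, at 74.4 CPM, as do sham mice 13 and 17 for Reg3g, at 269 and 141 CPM.

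Immediate early genes, which are induced within minutes of a stimulus such as the gavage or the dissociation of the tissue, had mostly positive values and no single call. Of 20 tested members 19 had a positive log2 fold change, with a median of 0.40, and 0 were at p under 0.05. The median was 0.44 both within index D502, with 1 higher at p under 0.05, and with the covariate, with 4 higher, and edgeR on the 11 libraries alone had 3 higher. Egr2 had the lowest p (0.84, standard error 0.441). Fos was at 281, 145, 234, 204 and 186 CPM in sham ad libitum mice and at 145 to 512 CPM after VSG (median 237), a log2 difference of 0.48 (standard error 0.51). The unfolded protein and integrated stress response list had 26 tested members, a median of 0.08 and 0 at p under 0.05.

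Xenobiotic enzymes, the esterases, cytochromes P450 and conjugating enzymes that clear drugs and plant compounds, had mostly negative values. All 27 members were tested, 11 (40.7%, against a background of 1.11%) were lower after VSG at p under 0.05 and 0 were higher, 26 had a negative log2 fold change, and the median was -0.72. The groups did not overlap for 4 of them: Ces1g, Cyp2d26, Cyp3a25 and Cyp3a11. The size of the difference moved with the way the index was handled. Within index D502 the median was -0.26 with 7 of 27 lower at p under 0.05, and with the index as a covariate it was 0.10 with 2 lower. Sham weight-matched mouse 27 enters the index term of the covariate fit, and its part in that value was not tested. The number lower was 19 of 26 with edgeR on the 11 libraries alone, 6 without sham ad libitum mouse 12 and 6 without VSG mouse 11, and 8 to 13 with any other library left out.

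Ces1g (ENSMUSG00000057074, GRCm38 chromosome 8 from 93302369 to 93337308), a carboxylesterase of lipid and drug ester hydrolysis, was at 5.51, 8.89, 4.78, 6.10 and 4.26 CPM in sham ad libitum mice and at 0.631 to 2.22 CPM after VSG (median 1.41). Every VSG library lay below every sham library. The log2 fold change was -2.02 (standard error 0.481, edgeR adjusted p = 0.671), and it was -1.84 within index D502 and -1.44 with the index as a covariate. Cyp2c29, a cytochrome P450, had the lowest p of all genes (log2 fold change -4.02, standard error 0.875, edgeR adjusted p = 0.424). Its sham libraries were spread over 20.1, 3.58, 0.439, 1.49 and 7.18 CPM, and VSG libraries lay between 0.101 and 1.199. Without sham ad libitum mouse 12 the value was -2.96. Cyp2c29 shares exon sequence with a pseudogene, Cyp2c53-ps, so that its counts are uncertain.

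Cyp3a11, the major intestinal drug-metabolising P450, was at 624.8, 604, 276, 278 and 296 CPM in sham ad libitum mice and at 98.0 to 252 CPM after VSG (log2 fold change -1.27, standard error 0.604). The 2 highest sham libraries, mice 12 and 32, both carry index D501, and the log2 fold change was -0.75 within index D502. Aldh1a1, a retinaldehyde dehydrogenase, had -1.03 (standard error 0.359) and Ces2a, an esterase, -0.84 (standard error 0.328). Within index D502 these were -0.82 and -0.63, and with the covariate -0.51 and -0.40.

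Lipid handling and fasting genes also had mostly negative values, of smaller size. Among 23 tested fasting and PPAR targets, 21 had a negative log2 fold change (median -0.22), 3 were lower at p under 0.05 and 0 were higher, against 9 lower with edgeR on the 11 libraries alone. The median was -0.13 within index D502, with 4 lower, and -0.0026 with the covariate, with 1 lower. Pck1, the gluconeogenic enzyme PEPCK, was at 65.6, 120.5, 39.0, 35.4 and 79.7 CPM in sham ad libitum mice and at 6.94 to 42.1 CPM after VSG (log2 fold change -1.81, standard error 0.511), with -1.58 within index D502 and -0.98 with the covariate. Hadhb, a subunit of the mitochondrial trifunctional protein of fatty acid oxidation, was at 13.4, 17.2, 13.3, 16.4 and 17.6 CPM and at 8.02 to 10.8 CPM after VSG, without overlap (-0.64, standard error 0.23), and it was -0.78 within index D502. Angptl4, a lipase inhibitor induced by fasting, also did not overlap (-0.98, standard error 0.505). The core oxidation enzymes Cpt1a and Hadha were not at p under 0.05.

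All 12 enterocyte markers had a negative log2 fold change (median -0.30), but 1 was lower at p under 0.05. Fabp2, the intestinal fatty acid binding protein, was at 356, 519, 288, 257 and 268 CPM in sham ad libitum mice and at 104 to 200.1 CPM after VSG (median 152), so that all VSG libraries lay below all sham libraries (log2 fold change -1.17, standard error 0.519, 95% interval -2.22 to -0.12). Without sham ad libitum mouse 32, or without VSG mouse 28, none of the 12 was at p under 0.05. Fabp1, a second fatty acid binding protein, was at 382, 625.5, 359, 293 and 453 CPM and at 167 to 297 CPM after VSG (log2 fold change -0.97, standard error 0.503). Other markers of the same cells differed less: the brush border enzyme Sis and the apolipoproteins Apoa1, Apoa4 and Apob overlapped widely, and their summed level with the rest of the list was 6869 to 9717 CPM in the 4 sham libraries other than mouse 32, against 6956 to 9980 CPM after VSG. Fabp2 and Fabp1 were at -0.82 and -0.80 within index D502, and at -0.19 and -0.34 with the covariate. With edgeR on the 11 libraries alone 4 of the 12 were lower at p under 0.05. The median of the 12 was -0.10 within index D502 and 0.43 with the index as a covariate. How far enterocyte transcripts carry the xenobiotic and lipid genes was not tested.

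Fabp1 was the 1 enterocyte marker, of 11 with a promoter, that matched the DR1 motif, the direct repeat bound by PPAR and HNF4 receptors, which 122 of the 27025 genes (0.451%) matched. The motif was taken as AGG, any base, CA, any base, then AGG, any base and CA, on both strands of the same windows, and none of the 19 fasting and PPAR targets with a promoter matched it. The 250 bases before the start of Fabp1 are chr6:71199629-71199878 on the plus strand, with the match in capitals.
Fabp1: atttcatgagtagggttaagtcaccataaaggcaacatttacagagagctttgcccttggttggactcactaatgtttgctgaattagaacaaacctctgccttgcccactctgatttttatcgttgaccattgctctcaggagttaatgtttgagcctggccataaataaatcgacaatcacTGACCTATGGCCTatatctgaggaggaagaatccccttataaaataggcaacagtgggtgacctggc

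**Figure D4:**
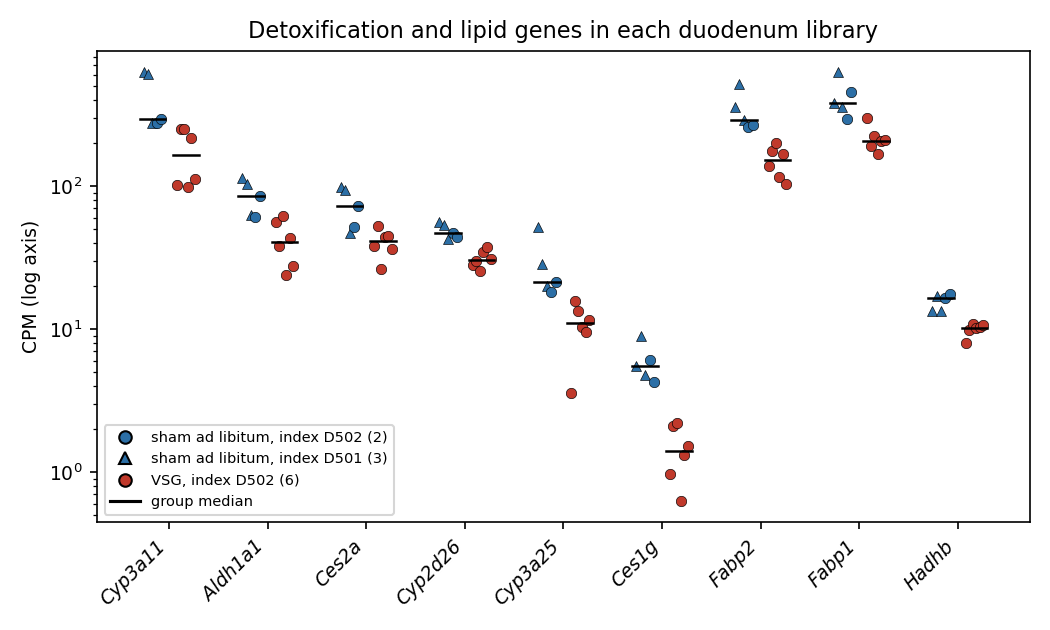
CPM (log axis) of 6 xenobiotic enzymes (left), the fatty acid binding proteins Fabp2 and Fabp1, and Hadhb in each duodenum library, blue for sham ad libitum and red for VSG, with triangles for index D501, circles for D502 and a bar at each group median. The groups do not overlap for Ces1g (0.631 to 2.22 CPM after VSG against 4.26 to 8.89 CPM), Cyp2d26, Cyp3a25, Cyp3a11, Fabp2 or Hadhb. For Cyp3a11 and Aldh1a1 the 2 highest libraries are sham libraries with index D501.

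Calls in this contrast differed with the tool and with the libraries fitted. When DESeq2 was fitted to the 11 compared libraries alone, an alternative added with the data in view, 42 of 13317 genes passed an adjusted p of 0.05: 5 were higher after VSG (0.0375%) and 37 lower (0.278%). With 1 of the 11 libraries left out the number was 20 to 57, lowest without sham ad libitum mouse 12 (20), sham ad libitum mouse 17 (24) and VSG mouse 18 (28). edgeR on the same 11 libraries called 0 genes (672 at an unadjusted p under 0.05, lowest adjusted p 0.0679), and limma voom called 0 (5.30% at that level). edgeR on the 15 duodenum libraries without sham weight-matched mouse 27 called 9 of 14004 (0.0643%), all lower after VSG, and all 9 were among the 42. Of the 42 genes 20 had groups that did not overlap and 35 were at p under 0.05 in the fit of 48. In 31 of the 42, sham weight-matched mouse 27, the library rich in enterocyte markers, was the highest of all 16 duodenum libraries, as it was for 25.2% of the genes tested.

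The 37 genes that fell in that DESeq2 fit were led by Cat, which encodes catalase, the peroxisomal enzyme that breaks down hydrogen peroxide. Cat was at 220.5, 213, 230.1, 223 and 225 CPM in sham ad libitum mice and at 137 to 178 CPM after VSG (median 149), with the sham libraries almost level and no overlap (log2 fold change -0.55 in both fits, DESeq2 adjusted p = 8.91e-06). Within index D502 it was -0.57, and with the index as a covariate -0.27. Ces1g and Fabp2 (both DESeq2 adjusted p = 1.63e-05), Fabp1 and Slc6a20a, a proline transporter of the brush border (both 0.000254, as was the predicted gene Gm5485), and Slc5a4a, a sodium-coupled carrier of the SGLT family (0.00042), followed. Sord, a sorbitol dehydrogenase, and Anxa13, an annexin of the apical membrane, also did not overlap, at -0.57 and -0.63 in the fit of 48, -0.48 and -0.56 within index D502, and -0.20 and -0.23 with the covariate. Of the 27 xenobiotic enzymes 7 fell in this fit, of the fasting and PPAR targets 2 (Angptl4 and Hadhb), of the enterocyte markers 2 (Fabp1 and Fabp2) and of the defence list 0. The 5 that rose were Mfsd4a (DESeq2 adjusted p = 0.035), Igsf8, Pkib, Dusp18 and Car8. Dusp18, a phosphatase, was at 19.8, 27.03, 26.5, 22.2 and 23.6 CPM in sham ad libitum mice and at 30.9 to 35.9 CPM after VSG, and Igsf8 at 32.7, 40.0, 34.0, 39.3 and 41.0 CPM and at 44.7 to 57.7 CPM. Cat, Slc5a4a, Slc6a20a, Sord, Anxa13, Mfsd4a, Pkib and Dusp18 were named after their values were seen. Mfsd4a overlaps Elk4 and Slc6a20a overlaps Ccr9, and Igsf8 also overlaps another gene, on the opposite strand, so that their counts are uncertain.

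Nutrient transporters had values on both sides of 0. Of 24 nutrient transporters and glucose sensing genes 1 was higher and 1 lower at p under 0.05, with a median of -0.09, which was 0.09 within index D502 and 0.36 with the covariate, where 5 were higher at p under 0.05. Slc7a5, which imports large neutral amino acids, was at 15.2, 17.3, 21.6, 15.2 and 16.9 CPM in sham ad libitum mice and at 20.8 to 37.2 CPM after VSG (log2 fold change 0.63, standard error 0.216). Slc28a1, a pyrimidine nucleoside carrier, was at 9.97, 15.7, 9.06, 4.61 and 6.81 CPM and at 1.01 to 4.79 CPM after VSG (-1.86, standard error 0.564), with -1.18 within index D502 and -0.74 with the covariate, the latter not at p under 0.05. Slc5a1, the glucose carrier SGLT1 through which these cells sense the gavage, had 0.16 (standard error 0.443), with a mean of 439 CPM (SD 180, n = 6) against 393 CPM (SD 82.2, n = 5).

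Of 21 tested genes of duodenal iron, calcium and vitamin uptake, 3 were lower at p under 0.05 and 0 were higher: the metallothioneins Mt2 (-1.02, standard error 0.364) and Mt1 (-0.65, standard error 0.274), and the vitamin C carrier Slc23a1 (-2.48), which was at most 1.91 CPM on average in either group. Neither metallothionein was at p under 0.05 within index D502 (-0.74 and -0.51) or with the covariate (-0.58 and -0.17), and the list's median of -0.10 was 0.16 and 0.61 in these fits, the latter with 7 higher at p under 0.05. The groups overlapped for all 3, and Mt2 overlaps Gm45774 on the opposite strand. Of 18 clock genes 1 was higher and 1 lower at p under 0.05. The lower one was Nr1d1, a repressor of the clock loop (-0.59, standard error 0.238), whose groups overlapped and whose counts are uncertain because it overlaps Thra on the opposite strand. Within index D502 Nr1d1 was -0.51 and at p under 0.05, and with the covariate it was -0.16 and not at p under 0.05. Arntl (-0.01) and Dbp (0.10) were near 0. In the bile acid and FXR list 1 of 12 was at p under 0.05, Fabp6, the ileal bile acid binding protein (-1.66, at 1.89 against 5.98 CPM), whose sign turned within index D502 (1.79). Cholesterol synthesis (22 tested, median 0.01), MHC class II (7, median -0.42) and the mitochondrial genome (7, median -0.12) had 0 at p under 0.05. Within index D502 the medians of these 3 lists were -0.0021, 0.34 and -0.042, and with the covariate 0.087, 0.77 and 0.31. Those of the clock genes were -0.13 and -0.025, and those of the bile acid list 0.093 and 0.45.

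The 10 genes of lowest p in each direction include members of these lists, among them Nfkbia, Cyp2c29, Ces1g, Gstm1, Pck1 and Slc28a1. Cd177, a surface glycoprotein best known from neutrophils, was at 44.2, 40.5, 86.1, 69.2 and 69.0 CPM in sham ad libitum mice and at 83.7 to 258 CPM after VSG (median 113), a log2 fold change of 1.16 (standard error 0.261, edgeR adjusted p = 0.424). One VSG library lay below the highest sham library. The log2 fold change of Cd177 was 0.99 within index D502 and 0.72 with the covariate. Tmsb10, an actin-binding peptide (0.74, standard error 0.208), Car8 (0.86, standard error 0.264), the folate carrier Slc25a32 (0.97, standard error 0.314) and Cfi, a complement regulator (0.78, standard error 0.242), followed with Agpat4 (0.90), Pla2g4c (3.83) and Ppp2r2c (2.94), of which the last pair was at 0.133 and 0.197 CPM on average in sham ad libitum mice. Pla2g4c rested on VSG mouse 25, with 82 of its counts, and was at 1.23 without that library. On the lower side Acsf2, an acyl-CoA synthetase, did not overlap (-0.72, standard error 0.188), Hjurp, a centromere chaperone, was at 223, 173, 201, 238 and 218 CPM in sham ad libitum mice and at 127 to 174 CPM after VSG (-0.48, standard error 0.125), and Kirrel (-0.93), Cubn, the receptor for cobalamin bound to intrinsic factor (-2.25, overlapping Gm13270 on the opposite strand), Gstm1 (-1.03) and Aqp8 (-2.79) had lower values too. Gstm1, a glutathione transferase, was at -0.60 within index D502 and -0.30 with the covariate. Hjurp and Kirrel are, with Slc28a1, Maob and Clps (-0.27), among the 8 genes the study annotated, of which 3 were higher and 4 lower at p under 0.05, and that list was chosen on these samples.

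The sham weight-matched group gives the same lists a second reference, but it shares the VSG or the sham ad libitum libraries with each contrast, so the values are only set side by side. The defence list had a median log2 fold change of 0.39 for sham weight-matched over sham ad libitum and of 0.45 for VSG over sham weight-matched mice. The xenobiotic list had 0.53 and -1.48, and the enterocyte markers 0.89 and -1.17. The values of all 3 lists include mouse 27. In the defence list it was the highest sham weight-matched library for Reg3g, at 515 CPM against a group mean of 184. The same held for Reg3b, at 1306 CPM against a group mean of 460. The enterocyte markers summed to 56565 CPM in mouse 27 and to 8275 to 9683 CPM in the other sham weight-matched libraries, against 6956 to 9980 CPM after VSG. Cyp3a25, a xenobiotic enzyme, was at 234 CPM in mouse 27 against a group mean of 67.2. The part of mouse 27 in the medians of these lists was not tested.

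The other regions were profiled in the same way, mostly from the same mice, and the fit took all libraries as independent. The difference between regions was tested as an interaction. It was called for 0 of 15126 genes against the ileum (0.0%, lowest adjusted p 1 in edgeR, 356 genes at an unadjusted p under 0.05) and for 0 against the colon (0.0%, 609 genes), so no gene named here was shown to respond differently in the duodenum. The defence list had a duodenal median of 0.76, against 0.55 for the ileum and 0.34 for the colon. In that order, xenobiotic enzymes had -0.72, -0.48 and 0.38. Hormone genes had 0.11, 0.58 and -0.26, and immediate early genes 0.40, 0.78 and 0.24. Several genes named here had a difference from the ileum at an unadjusted p under 0.05. Among them were Pck1, at -1.81 against 0.25, Ghrl, at -0.27 against 1.22, Rab27a, at 0.45 against -0.04, and Mfsd4a, at 1.54 against -0.33. The same held for the colon, among others for Ces1g, at -2.02 against 0.15, Cd177, at 1.16 against -0.06, and Cat, at -0.55 against 0.34. None passed after adjustment.

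**Figure D5:**
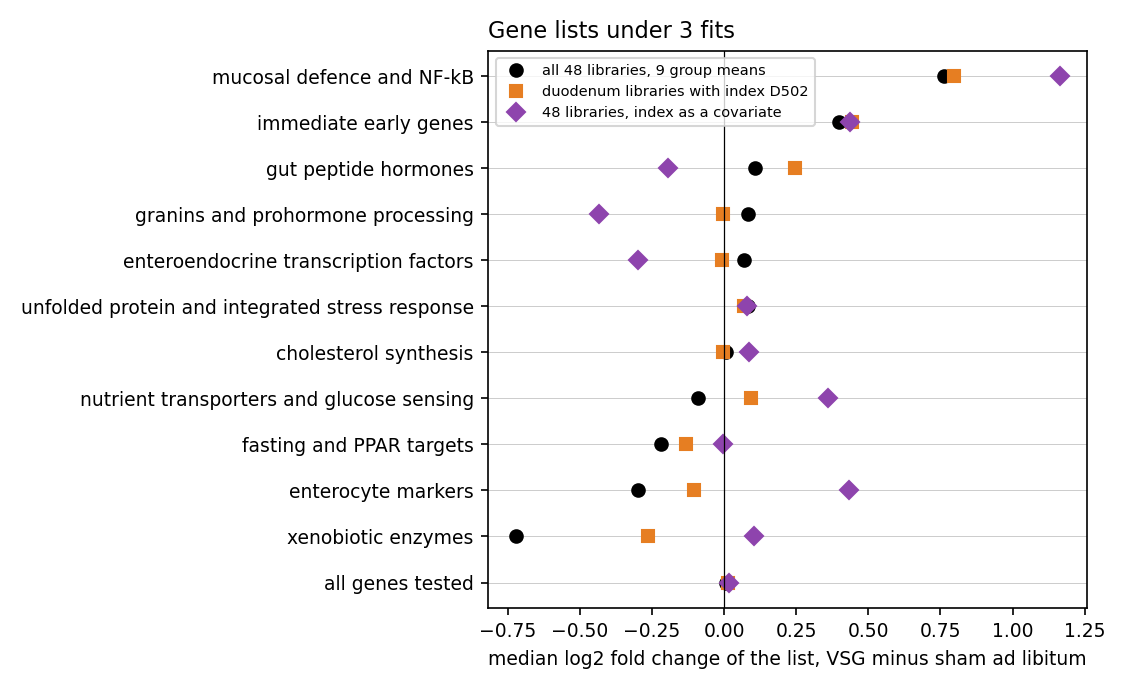
Median log2 fold change (VSG minus sham ad libitum, horizontal axis) of 11 gene lists and of all genes tested, for the fit of 48 libraries (black circles), the duodenum libraries with index D502 (orange squares) and the fit with the index as a covariate (purple diamonds). The mucosal defence list stays above 0 at 0.76, 0.80 and 1.16, whereas the xenobiotic enzymes move from -0.72 to -0.26 and 0.10 and the enterocyte markers from -0.30 to -0.10 and 0.43. Sham weight-matched mouse 27 enters the index term of the covariate fit.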

How the data were processed

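Per the labels and the study's methods, the authors extracted RNA from sorted cells, prepared strand-marking total RNA libraries, sequenced single-end reads, aligned them to GRCm38 with STAR 2.5.1 and deposited raw counts per gene of annotation GRCm38.91 for 48 libraries; the strand setting of the counting is not given in the sources used here. Gene names and positions came from GENCODE M21 (53360 of 53465 identifiers matched). Groups came from the surgery and tissue labels. For mouse 12 the ileum and colon labels disagree with the library code, and the tissue label was used.

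Genes were kept by filterByExpr, scaled by TMM and tested with edgeR 4.0.16 (quasi-likelihood, robust, R 4.3.3) on 9 group means, with Benjamini-Hochberg adjustment. The study's own tool, DESeq2 (1.42.0), and limma voom (3.58.1) were alternatives, as were other scalings, filters, library sets, the sequencing index and each library left out. CPM were computed from the deposited counts. Standard errors were derived from the log2 fold change and its F statistic. The scripts were tested on simulated data. No pair of libraries of 1 group was near-identical (the lowest chi-square per gene over 25 pairs was 10.4).

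The comparison, the gene lists and the members named were chosen with earlier results of these data known. Named were all gut peptide genes and enteroendocrine markers, the 10 genes of lowest p in each direction at 1 CPM or more in a group (predicted genes were counted, not named), up to 3 members of each list at p under 0.05 or the 1 of lowest p, members without overlap, and the 8 genes annotated by the study. Of 93 genes tracked across alternatives, 17 were named after their values were seen. A few genes that the rule names are not reported here. Members at p under 0.05 named beyond this rule are given as list values. In the fit of 48 libraries the p-values rest on the spread between mice within a group, pooled over the 9 groups. Libraries of 1 mouse from different regions were taken as independent there.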

Additional observations from a re-analysis of the deposited data

Results flagged for a closer look

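Among 48 groups of values searched for a single library far from the others, 6 stood out, and chance gives about 1 in 20. Sham ad libitum mouse 13 had 17182463 total counts, with the next library at 8033375. In sham ad libitum mouse 32 the enterocyte markers summed to 18260 CPM, with the next at 9717. VSG mouse 30 had 1317 CPM of Gcg (next 590.2), VSG mouse 18 had 99.3 CPM of Gast (next 27.9), and VSG mouse 22 had 0.30 CPM of Insl5 (next 0.101). In VSG mouse 28 the immune markers summed to 20.6 CPM (next 7.65).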

How the results depend on the processing

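Of the settings tried, those that called a gene were edgeR and DESeq2 restricted to subsets of the duodenum: edgeR on 15 duodenum libraries without sham weight-matched mouse 27 called 9, and DESeq2 on the 11 compared libraries called 42 (20 to 57 with 1 left out). The interactions with the ileum and colon had 0 calls under each setting run. The share of tested genes at an unadjusted p under 0.05, 2.45% in the fit of 48, was 5.12% with no filter, 5.05% with edgeR on the 11 libraries, 8.48% with the index as a covariate, 3.73% within index D502, 5.21% on the 15, 5.47% with DESeq2 and 5.30% with limma voom on the 11, and 2.01% to 2.71% with 1 library left out. The number of genes without overlap was 125 to 170 with 1 library left out, since fewer libraries overlap less. The share of variance was 16.9% with 50 genes, 16.4% with 500, 15.2% with another log transform, 14.8% within index D502 and 13.9% to 21.1% with 1 library left out. The shares from fewer libraries are not on the scale of the others. No paired analysis was possible because VSG and sham ad libitum libraries come from different mice; the replicate block used the mouse across regions (correlation 0.128), called 0 genes with 477 at an unadjusted p under 0.05, and turned Chga to -0.0041. Over 93 named genes and 2270 comparisons, 2186 kept direction and side of the threshold, 32 passed it and 52 changed sign, of which 28, in 20 genes, came from settings other than leaving out a library. With the index as a covariate the log2 fold changes that turned were Cck -0.21, Chga -0.47, Cpe -0.13, Fabp6 0.23, H2-Eb1 0.13, Insl5 0.76, Insm1 -0.40, Isl1 -0.17, Neurod1 -0.41, Nts -0.11, Pax6 -0.26, Pyy -0.19, Rfx6 -0.28, Scg2 -0.43, Sct -0.11, Sst -0.10, Tac1 -0.35, Zg16 0.071 and mt-Nd2 0.31. Within index D502 they were Chga -0.023, Clps 0.10, Fabp6 1.79, Rfx6 -0.028, Scg2 -0.0047 and mt-Nd2 0.0195, and with limma voom on the 11 libraries Chga -0.022 and Neurod1 -0.0027. With 1 library left out, Chga ranged from -0.081 to 0.10, Chgb from -0.12 to 0.076, Insl5 from -1.56 to 0.25, Muc6 from -0.20 to 1.60, Neurod1 from -0.053 to 0.14, Nts from -0.15 to 0.38, Pyy from -0.16 to 0.14 and Scg2 from -0.00093 to 0.14. The causes, among them the part of sham weight-matched mouse 27 in the index term of the covariate fit, were not tested. Depth limits genes under 1 CPM, of which 0.126% had an interval within 2-fold.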
